A study of Mus musculus with 20 samples.

Results

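The amyloid precursor family and the secretases that cut it were followed through the arcuate nucleus of mice given corticosterone. The group comprised 9 genes out of the 22048 in the count tables, picked by symbol: the precursors App, Aplp1 and Aplp2, the alpha-secretase Adam10, the beta-secretase Bace1, the gamma-secretase subunits Psen2, Ncstn and Aph1a, and the adaptor Apbb1. Male C57BL6/J mice, given in the labels as 10 weeks old, drank either vehicle, which was 1% ethanol, or corticosterone (Cort) at 75 µg/ml in 1% ethanol, for 2 days or for 4 weeks. The 4 week mice had also been fasted for 16 h and refed for 24 h. Each of the 4 groups held 5 samples, each from the laser-captured arcuate nucleus, the hypothalamic region that holds the Agrp and Pomc neurons controlling feeding. The study left out 3 outlying samples per dataset, so that the comparisons rested on 3 vehicle and 4 Cort samples at each time, and values are also given over all 10. Section thickness, slides, laser system, sequencer and fasting differed between the datasets, and the effect of time cannot be told apart from theirs. The labels do not say whether each sample was 1 animal, and p-values measure the spread between these samples.

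App is a membrane protein that is cut in successive steps. The alpha-secretase Adam10 cuts within the amyloid beta stretch and prevents its release, whereas the beta-secretase Bace1 cuts at the start of that stretch. Gamma-secretase, a complex of a presenilin such as Psen2, nicastrin (Ncstn), an Aph1 subunit and Psenen, then cuts the stub within the membrane, releasing amyloid beta after a Bace1 cut and the App intracellular tail in either case. Apbb1, also called Fe65, binds that tail. Aplp1 and Aplp2 are relatives of App that pass through the same enzymes but lack the amyloid beta stretch, and Aplp1 is known as a largely neuronal gene.

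All 9 genes passed the filter on low counts in each comparison, and none was called changed by Cort at 2 days, at 4 weeks, or in the difference between the times. A call meant a Benjamini-Hochberg adjusted p below 0.1 over all genes in edgeR's quasi-likelihood test. At 2 days 0 of 9 passed, where 8 of 12309 genes tested (0.065%) were called. At 4 weeks 0 of 9 passed, where 5 of 11211 (0.0446%) were called. For the 4 week minus 2 day difference 0 of 9 passed, where 2 of 12777 (0.0157%) were called. At an unadjusted p below 0.05 the members again numbered 0 in each comparison over kept samples, against 735, 550 and 829 of all genes. Over all 10 samples 1 of 9, Psen2, passed this threshold at 2 days, where 633 of 11983 genes did. DESeq2 also called 0 in each comparison, although it gave Psen2 no adjusted p at 4 weeks. The median log2 fold change over the 9 members was -0.02 at 2 days and -0.31 at 4 weeks, against 0.02 and 0.04 over all genes tested. At 2 days 4 of the 9 were higher in Cort, and at 4 weeks 1 of the 9. With calls this rare over all genes, 0 of 9 does not set the members apart, and the 95% intervals below show which sizes of change the samples could and could not exclude.

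The captured tissue and the left-out samples bear on every value. Total counts per sample ran from 2487063 to 5748223 at 2 days and from 1065776 to 5196364 at 4 weeks. Among markers of arcuate neurons, the summed level of 7 genes was 879 to 1372 CPM (counts scaled to library size by TMM, per 1000000) in kept 2 day vehicle samples and 1496 to 1984.5 in Cort, with 6 of 7 genes higher in Cort. At 4 weeks the order was turned, at 824 to 1272 in vehicle and 363 to 755 in Cort, with 6 of 7 genes lower. This list holds genes that the study itself reported as changed: Agrp, raised by Cort at 2 days, and Npy, reduced at 4 weeks. These sums are therefore not a measure of the captured tissue alone. Agrp, Npy, Pomc and 3 others of this list were detected in every sample, while Kiss1 was at 0 in 3 samples at 2 days and 8 at 4 weeks. Nr5a1, the defining gene of the neighbouring ventromedial nucleus, did not exceed 2.44 CPM in any sample, but other markers of that nucleus did. Its 5 markers summed to 37.3 to 73.8 CPM in kept 2 day vehicle and 23.1 to 81.1 in Cort. At 4 weeks the sums were 6.03 to 33.5 CPM in kept vehicle and 1.24 to 89.8 in Cort, and Cbln1 alone reached 75.9 CPM. The 5 astrocyte markers summed to 1338.5 to 1518.5 CPM in 4 week vehicle and 1658 to 2187 in Cort, with 4 of 5 genes higher and no overlap over all 10 samples. Of the 7 oligodendrocyte markers 6 were higher in Cort at 2 days, with sums of 352 to 426 CPM in kept vehicle and 434 to 616 in Cort. Of the 6 general neuronal markers 4 were higher in Cort at 4 weeks, with sums of 2931 to 3057 CPM in kept vehicle and 3317 to 3783 in Cort. Apart from the astrocyte list at 4 weeks, these lists overlapped between treatments once all 10 samples were used. The part of cell composition in the members' values was not tested. In bulk tissue, fewer cells of a type and less RNA per cell cannot be told apart.

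Promoter sequence is shown for a few members. The 250 bases before the RefSeq start of App, Aplp1 and Aph1a are given 5′ to 3′, from RefSeq promoters on GRCm38.p6. They are shown for the 2 precursors whose patterns across kept samples were most alike (Pearson's r = 0.77) and for a gamma-secretase subunit that holds both motifs searched. Capitals mark the GC box GGGCGG and AGAACA, the letters of 1 side of a glucocorticoid response element, each on either strand, and no 2 matches overlapped. The App stretch lies at chr16:85173708-85173957 on the minus strand, that of Aplp1 at chr7:30445583-30445832 on the minus strand and that of Aph1a at chr3:95893671-95893920 on the plus strand. The App gene span given below comes from another annotation and starts further upstream, at 85173766. The last part of the App stretch, with its GC box, therefore lies inside that span.
App: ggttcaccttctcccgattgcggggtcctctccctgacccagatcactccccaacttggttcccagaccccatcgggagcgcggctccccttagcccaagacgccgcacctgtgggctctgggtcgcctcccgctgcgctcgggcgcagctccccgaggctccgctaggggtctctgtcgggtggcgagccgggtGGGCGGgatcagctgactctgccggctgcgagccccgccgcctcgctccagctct
Aplp1: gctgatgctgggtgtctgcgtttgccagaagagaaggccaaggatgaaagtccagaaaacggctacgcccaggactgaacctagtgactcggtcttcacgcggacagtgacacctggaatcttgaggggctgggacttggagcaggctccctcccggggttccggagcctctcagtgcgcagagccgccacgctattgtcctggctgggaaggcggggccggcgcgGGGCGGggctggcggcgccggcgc
Aph1a: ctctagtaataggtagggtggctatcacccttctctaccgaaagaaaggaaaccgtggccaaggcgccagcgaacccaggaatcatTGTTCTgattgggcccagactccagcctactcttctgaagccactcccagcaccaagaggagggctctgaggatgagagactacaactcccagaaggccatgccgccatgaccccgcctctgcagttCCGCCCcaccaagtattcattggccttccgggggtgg
Promoters were matched for 8 of the 9 members, with 11 entries. GGGCGG was present in 7 of these 11 promoters, each of a different gene, and in 32.7% of all 32851 promoters of the same length. AGAACA was present in 2 of the 11, 1 of Aph1a and 1 of Psen2, and in 16.1% of all promoters. A match of letters is a description of the sequence and not evidence of binding.

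The 3 precursors were the best measured members. App (chr16:84949685-85173766, minus strand, GRCm38) carried between 365 and 3419 counts per sample. At 2 days the App level in kept vehicle samples C02, C04 and C05, named by column number, was 475, 619.5 and 586 CPM. In the kept Cort samples C01, C03, C06 and C10 it was 584, 508, 525 and 579 CPM. The Cort samples lay within the vehicle range, with means of 560 ± 75.5 (SD, n = 3) and 549 ± 38.1 (SD, n = 4). The edgeR log2 fold change was -0.02 (SE 0.13, 95% interval -0.28 to 0.24, adjusted p = 0.99). Vehicle samples C07 and C09 and Cort sample C08, which the study left out, stood at 377, 380 and 384 CPM, below every kept sample.

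At 4 weeks App was 465, 460 and 420 CPM in kept vehicle samples C02, C03 and C04. In the kept Cort samples C07 to C10 it was 318, 462, 401 and 416 CPM. Cort sample C07 was the lowest and C08 reached the vehicle range, so the groups overlapped. The log2 fold change by edgeR was -0.18 (SE 0.23, 95% interval -0.66 to 0.30, adjusted p = 0.99). Left-out Cort sample C06 was the highest of the dataset, at 602 CPM, and left-out vehicle samples C01 and C05 stood at 335 and 459 CPM. The change at 4 weeks minus that at 2 days was -0.16 on the log2 scale (95% interval -0.65 to 0.34).

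Aplp1 (chr7:30434982-30445535, minus strand) had the highest CPM of the 9 in kept samples. At 2 days it was 646, 711 and 791 CPM in kept vehicle samples and 655, 647, 615 and 652 CPM in Cort. Cort samples lay close together around the lowest vehicle sample, and the groups overlapped. By edgeR the log2 fold change was -0.15 (SE 0.11, 95% interval -0.38 to 0.09, adjusted p = 0.92). At 4 weeks Aplp1 was 842, 861 and 742 CPM in kept vehicle samples and 619, 968, 676 and 698 CPM in Cort. Here the highest and the lowest kept sample were both Cort, and the log2 fold change was -0.15 (SE 0.20, 95% interval -0.58 to 0.28). Left-out vehicle sample C01, with 245 counts, was at 225 CPM, far below the other 9.

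Aplp2 (chr9:31149557-31211815, minus strand) was 305.5, 208 and 258 CPM in kept vehicle samples at 2 days. In Cort it was 227, 184, 237 and 226 CPM, and the groups overlapped. In edgeR's fit the log2 fold change was -0.22 (SE 0.16, 95% interval -0.56 to 0.11, adjusted p = 0.92). At 4 weeks the values were 430, 289.5 and 364 CPM in kept vehicle and 332, 332, 205 and 304 CPM in Cort. The vehicle samples included the highest value and the Cort samples the lowest, with a log2 fold change of -0.31 (SE 0.27, 95% interval -0.88 to 0.26). Left-out samples C06 (Cort) and C01 (vehicle) lay lower, at 71.1 and 128 CPM. For each of the 3 precursors the 2 day intervals over kept samples exclude a log2 change of 1 in either direction, and so do the 4 week intervals. Over all 10 samples the 4 week interval of Aplp2 was -1.05 to 0.55, which does not exclude a fall of 1. At 2 days App and Aplp1 shared one feature: in both, all 3 left-out samples fell below all 7 kept samples. These samples were excluded on the expression of the same libraries, so this is a description.

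**Figure D1:**
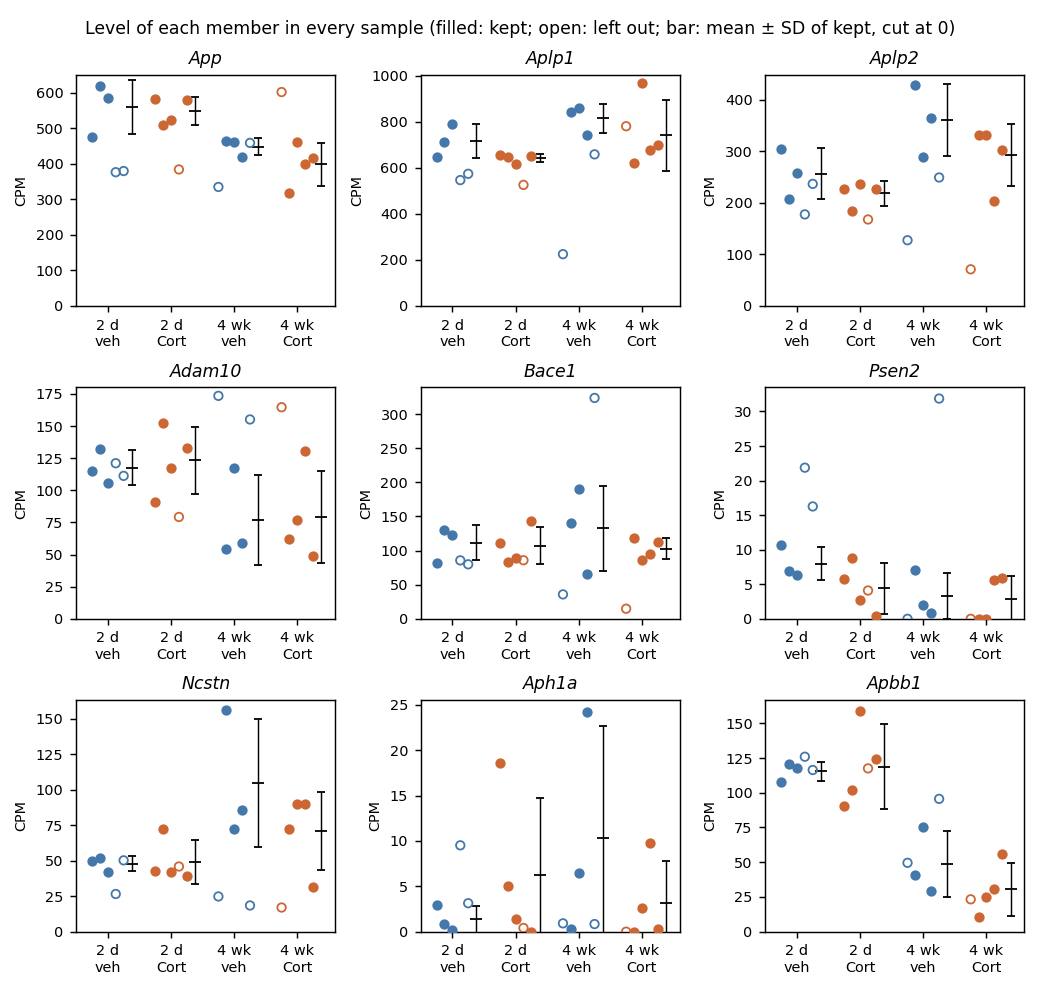
Level of each of the 9 genes (vertical axes, CPM, each from 0) in every sample of the 4 groups, vehicle in blue and Cort in orange, with filled points for kept and open points for left-out samples and bars for the mean ± SD of kept samples, cut at 0. In every panel the kept vehicle and Cort points overlap at both times, and the open App points at 2 days, 377 to 384 CPM, lie under the filled ones.

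Adam10 (chr9:70678997-70780229, plus strand), the constitutive alpha-secretase of neurons, was 115, 132 and 105.5 CPM in kept vehicle samples at 2 days. In Cort it was 91.0, 152, 117 and 133 CPM, so that Cort samples were both highest and lowest. The estimate by edgeR on the log2 scale was 0.07 (SE 0.20, 95% interval -0.35 to 0.50, adjusted p = 0.97). At 4 weeks Adam10 was 54.4, 117 and 59.1 CPM in kept vehicle samples and 62.1, 77.1, 130 and 48.6 CPM in Cort. Each group held 1 sample well above the rest, and the log2 fold change was 0.03 with a wide interval (SE 0.51, 95% interval -1.05 to 1.11). All 3 left-out 4 week samples, at 155 to 173 CPM, were above all 7 kept ones.

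Bace1 (chr9:45838580-45864399, plus strand) shares 32.5% of its exon bases with overlapping genes on the other strand, among them Rnf214, and no strand setting is given for the counting, so part of its counts may belong to those genes. At 2 days it was 82.1, 130 and 123 CPM in kept vehicle samples and 111, 83.5, 89.3 and 144 CPM in Cort. The groups covered almost the same range, with an edgeR log2 fold change of -0.06 (SE 0.23, 95% interval -0.53 to 0.42, adjusted p = 0.98). At 4 weeks it was 141, 190.2 and 66.3 CPM in kept vehicle samples and 119, 85.7, 94.3 and 112 CPM in Cort. The Cort samples lay inside the vehicle range, and the log2 fold change was -0.38 (SE 0.41, 95% interval -1.26 to 0.50). Left-out samples spanned more than all kept ones, from 14.8 CPM in Cort sample C06 to 324 CPM in vehicle sample C05.

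The balance of alpha- over beta-secretase transcripts, taken as the log2 ratio of Adam10 to Bace1 in RPKM (CPM per 1000 bases of exon), did not separate the groups. At 2 days it ran from 0.15 to 0.86 in kept vehicle samples and from 0.08 to 1.24 in Cort. At 4 weeks it ran from -0.9998 to 0.20 in vehicle and from -0.83 to 0.84 in Cort. The vehicle range lay inside the Cort range at 2 days, and the ranges overlapped at 4 weeks.

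Among the gamma-secretase subunits, Ncstn was the member measured best, with 99 or more counts in every kept sample. Ncstn (chr1:172066013-172082795, minus strand), which recognises the stub to be cut, was 49.5, 51.7 and 41.7 CPM in kept vehicle samples at 2 days. In Cort it was 43.0, 72.4, 42.3 and 39.4 CPM, where sample C03 stood above the rest. Cort over vehicle by edgeR gave a log2 fold change of 0.06 (SE 0.29, 95% interval -0.56 to 0.67, adjusted p = 0.99). At 4 weeks Ncstn was 156, 72.0 and 86.0 CPM in kept vehicle samples and 72.0, 89.5, 90.2 and 31.4 CPM in Cort. The groups overlapped, with a log2 fold change of -0.58 (SE 0.49, 95% interval -1.62 to 0.47). The 3 left-out 4 week samples, at 17.0 to 24.8 CPM, were below all 7 kept ones.

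Psen2 and Aph1a had the lowest levels of the 9. Aph1a in many samples of both datasets, and Psen2 mainly at 4 weeks, were near the limit of detection. A count of at most 3 was taken as the floor. Over the samples this is 0.512 to 1.19 CPM in the 2 day dataset and 0.619 to 2.75 in the 4 week dataset, for counting error only. Psen2 (chr1:180227004-180263438, minus strand), a catalytic presenilin, had 43, 32 and 31 counts in kept vehicle samples at 2 days and 34, 26, 15 and 1 in Cort, or 10.7, 6.90 and 6.30 CPM against 5.80, 8.76, 2.68 and 0.398 CPM. Sample C10 held the single count and the groups overlapped, with an edgeR log2 fold change of -0.83 (SE 0.80, 95% interval -2.51 to 0.85, adjusted p = 0.94). Over all 10 samples it was -1.49 (95% interval -2.86 to -0.13, unadjusted p = 0.034 and adjusted p = 0.93 by edgeR), and leaving out kept samples in turn gave -1.36, without C03, to -0.47, without C10. At 4 weeks it had 21, 5 and 2 counts in kept vehicle samples and 0, 0, 11 and 19 in Cort, and the interval of the log2 fold change, -4.09 to 3.596, was too wide to place it. Left-out vehicle sample C05 held 76 counts, or 31.9 CPM.

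Aph1a (chr3:95893969-95898288, plus strand), a scaffold subunit, had 12, 4 and 1 counts in kept vehicle samples at 2 days and 109, 15, 8 and 0 in Cort. The highest and the lowest sample were both Cort, and the edgeR log2 fold change of 2.25 had an interval from -0.32 to 4.81 (SE 1.23, adjusted p = 0.86). Over all 10 samples it was 0.63, and leaving out kept samples in turn gave 1.74 to 3.53, the latter without C02. Without C01, the highest sample, or C03 the gene did not pass the filter and gave no value. At 4 weeks the counts were 1, 16 and 54 in kept vehicle samples and 0, 11, 19 and 1 in Cort, with a log2 fold change of -1.73 (95% interval -5.33 to 1.88). Of the 50 base stretches of Aph1a transcripts, 39.5% also occur in transcripts of other genes, mainly the pseudogene Gm15429 and Car14, and how such reads were counted is not given in the sources used here. Its low count may therefore be short of reads.

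Apbb1 (chr7:105558483-105581653, minus strand), the adaptor of the App tail, was 107.5, 121 and 118 CPM in kept vehicle samples at 2 days. In Cort it was 90.5, 102, 159 and 124 CPM, again with the highest and lowest sample in Cort. The edgeR log2 fold change was 0.05 (SE 0.21, 95% interval -0.38 to 0.49, adjusted p = 0.98). At 4 weeks Apbb1 was 40.6, 75.2 and 29.6 CPM in kept vehicle samples and 10.7, 25.002, 30.4 and 55.9 CPM in Cort. The groups overlapped, with a log2 fold change of -0.68 (SE 0.72, 95% interval -2.20 to 0.84). Kept samples were higher at 2 days, at 90.5 to 159 CPM, than at 4 weeks, at 10.7 to 75.2 CPM. Left-out 4 week vehicle sample C05, at 95.6 CPM, made the times overlap, and time cannot be told apart here from capture and sequencer.

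**Figure D2:**
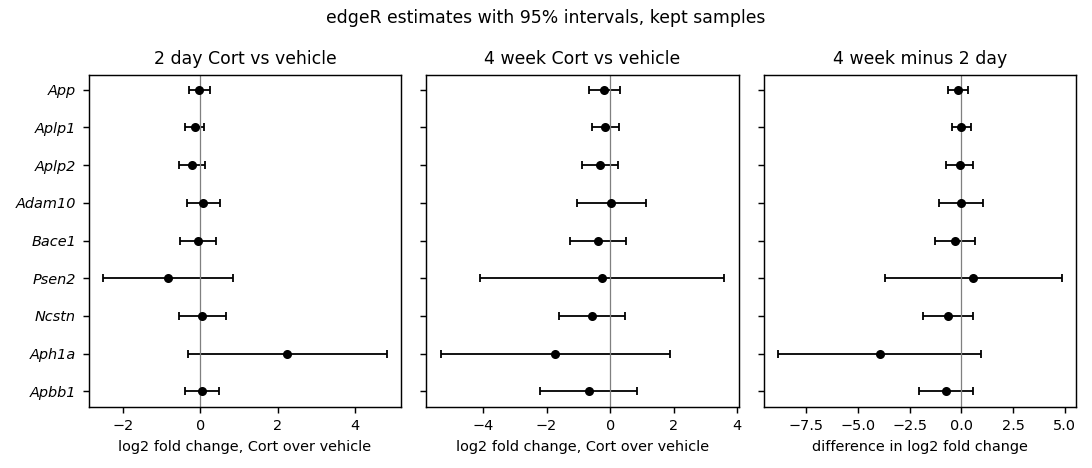
Log2 fold change of Cort over vehicle at 2 days (left) and 4 weeks (middle), and the difference between them (right), for the 9 genes with 95% intervals from edgeR over kept samples, on horizontal axes of different width. Every interval includes 0, those of App, Aplp1 and Aplp2 are the narrowest at 4 weeks, and those of Psen2 and Aph1a are the widest in each panel.

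A plain view of the samples led to the same count. In no member did the kept vehicle and Cort samples fail to overlap in CPM, at 2 days (0 of 9, where 6.63% of all genes tested did not overlap) or at 4 weeks (0 of 9, where 6.53% did not). Over all 10 samples the count was 0 of 9 at both times, beside 0.801% of genes at 2 days and 0.942% at 4 weeks.

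Per exon length, Aplp1 was the most abundant member in both datasets. Its median over kept samples was 216 RPKM at 2 days and 246 at 4 weeks, above 98.9% and 99.5% of 11004 genes tested in both datasets. At 2 days App followed at 44.6 RPKM and Aplp2 at 38.6, and the range of App (36.6 to 47.7) lay inside that of Aplp2 (31.2 to 52.0), so these neighbours did not differ beyond their spread. Apbb1 at 26.7, Adam10 at 23.8 and Bace1 at 17.5 RPKM came next with ranges that overlapped from one to the next, and Ncstn at 10.8 RPKM overlapped Bace1. Psen2 at 1.46 and Aph1a at 0.414 RPKM overlapped each other, and both lay below every kept sample of the other members.

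At 4 weeks Aplp2, at 56.5 RPKM, ranked above App at 32.3, with ranges of 34.8 to 73.2 and 24.4 to 35.8 that met at the edge. Ncstn at 21.6, Bace1 at 17.6 and Adam10 at 12.6 RPKM overlapped one another and App, Apbb1 at 6.90 RPKM overlapped Adam10, and Psen2 and Aph1a were again at the bottom, at 0.464 and 0.759 RPKM. The order did not change at 2 days with the length of the longest coding transcript in place of merged exons, and at 4 weeks it changed only by an exchange of Psen2 and Aph1a. The values of Bace1, Aph1a and Ncstn carry the limits of shared sequence given above, the last with 4.91% of exon bases shared with Copa on the other strand.

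**Figure D3:**
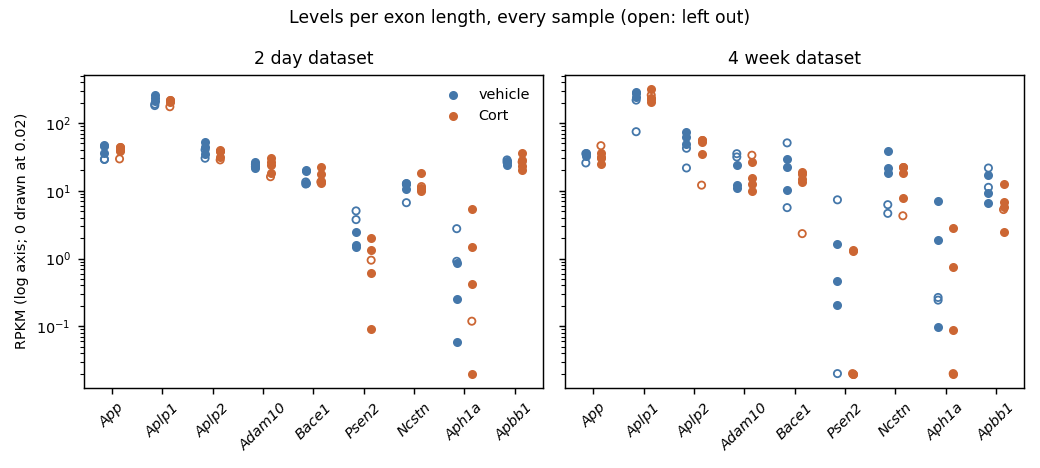
RPKM on merged exons (vertical log axis, with values of 0 drawn at 0.02) of the 9 genes in every sample of the 2 day (left) and 4 week (right) datasets, vehicle in blue, Cort in orange and left-out samples open. Aplp1 lies highest in both panels, with kept medians of 216 and 246 RPKM, and Psen2 and Aph1a lie lowest.

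Within the precursor family, the share of each gene in the summed RPKM of App, Aplp1 and Aplp2 overlapped between treatments. Aplp1 made up a median of 72.2% of the family at 2 days and 73.4% at 4 weeks. In CPM, which does not divide by length, the medians of Aplp1 and App were 45.3% and 38.1% at 2 days and 49.2% and 27.5% at 4 weeks. On the RPKM scale App made up 12.1% to 14.96% in kept vehicle samples and 13.7% to 14.9% in Cort at 2 days, and 9.22% to 9.57% and 8.54% to 10.7% at 4 weeks. Aplp2 made up 11.1% to 17.2% and 11.0% to 14.2% at 2 days, and 13.3% to 18.8% and 12.02% to 19.8% at 4 weeks. The App share in kept samples was higher at 2 days than at 4 weeks without overlap, at 12.1% to 14.96% against 8.54% to 10.7%, but over all 10 samples the times overlapped, at 11.3% to 14.96% and 8.54% to 21.1%. The difference in kept samples is one that cannot be told apart from the differences in capture, sequencer and fasting.

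The members did not vary as 1 group from sample to sample. Pearson correlations of log2 CPM centred on each dataset had a median of 0.0971 over the 36 pairs in all 20 samples, from -0.69 to 0.70, and a median of 0.107 over the 14 kept samples. They are given as descriptions, since the samples share capture, amplification and depth. App and Aplp1 were alike, with r of 0.58 over 20 samples and 0.77 over the 14 kept. Aplp2 and Adam10 ran opposite to each other in both, with r of -0.69 and -0.69. The likeness of Aplp2 to Bace1 (0.70) and to Ncstn (0.66) was seen only with the left-out samples, since it was -0.03 and 0.12 over the 14 kept. Among all pairs of a member and a marker list, the r of largest size was -0.66, of Adam10 with the summed arcuate neuron markers over 20 samples. It was picked as the largest of many, and no value over the 14 kept samples is given. In Adam10 all 3 left-out 4 week samples, at 155 to 173 CPM, lay above the kept ones, and their part in this r was not tested.

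**Figure D4:**
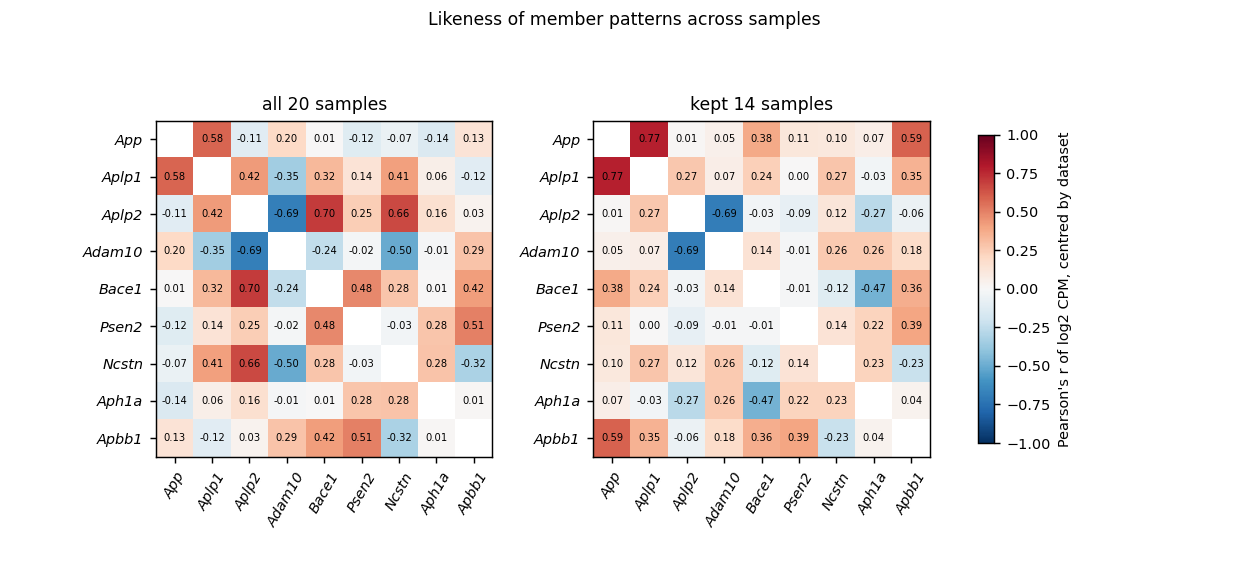
Pearson's r of log2 CPM centred on each dataset for each pair of the 9 genes over all 20 samples (left) and the 14 kept samples (right), on a colour scale from -1 to 1. App with Aplp1 (0.58 and 0.77) and Aplp2 with Adam10 (-0.69 and -0.69) hold in both panels, whereas Aplp2 with Bace1 goes from 0.70 to -0.03.

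The genes most like App across the 20 samples, out of 11016 ranked, were Rasgrf1 (r = 0.86), Mycbp2 (0.83), Peg3 (0.79), Dgkh (0.78) and Tmem151a (0.77). Over the 14 kept samples these fell to between 0.46 and 0.69. The coefficient of variation of App over 5 samples was 12.9% in 4 week vehicle, where the median gene stood at 67.4%, and 23.8% in 4 week Cort, where the median gene stood at 68.3%. At 2 days it was 23.2% in vehicle and 15.6% in Cort, where the median gene stood at 32.3% in Cort. Aplp1 varied less than App in 3 of the 4 groups. Apbb1 was the least variable member in 2 day vehicle, at 5.77%, close to the 4.38% that counting alone gives. Aph1a was at 110% there, against 25.8% from counting.

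The wider pathway held 65 genes of the count tables in 9 lists. They covered the secretases, gamma-secretase subunits, adaptors of the App tail, sorting proteins, Adam10 regulators, amyloid beta clearance, and substrates of Bace1 and of Adam10. Not all were measured, as Tspan10 had 0 counts in every sample. The lists include 6 of the members. By edgeR 0 of 62 tested were called at 2 days, 0 of 59 at 4 weeks, and 0 of 62 in the difference between times. At an unadjusted p below 0.05 there were 5 at 2 days (Apba1, Dab1, Aph1b, Aph1c and Sorl1), 2 at 4 weeks (Bace2 and Cx3cl1) and 4 in the difference (Apba1, Scn2b, Bace2 and Cx3cl1). Of all genes tested, 735 of 12309, 550 of 11211 and 829 of 12777 passed the same threshold. The median log2 fold change over the lists was -0.05 at 2 days and 0.05 at 4 weeks. The shares of 6.63% and 6.53% without overlap given above are over genes tested. Kept samples of the lists did not overlap in 5 of 65 genes at 2 days and 4 of 65 at 4 weeks, each among the 62 and 59 tested. These were Apba1, Sorl1, Itm2c, L1cam and Nlgn1 at 2 days and Bace2, Cx3cl1, Apba2 and Tspan17 at 4 weeks. Over all 10 samples 1 of 65 remained at 2 days, which was Apba1, and 0 of 65 at 4 weeks, beside 0.801% and 0.942% of all genes tested. Apba1, an adaptor also called Mint1 or X11, and the others of these genes outside the secretases and Cx3cl1 are named after their values were seen. Apba1 was 144 to 199 CPM in the 5 vehicle samples and 108 to 138 in the 5 Cort samples at 2 days, with an edgeR log2 fold change of -0.36 (95% interval -0.72 to -0.0011, adjusted p = 0.83).

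Of the alpha-secretase list, Adam17 and Adam9, metalloproteases related to Adam10, had edgeR log2 fold changes of 0.21 and 0.39 at 2 days and -0.01 and 0.13 at 4 weeks, each with an interval that included 0. The gamma-secretase list had 6 measured genes, of which 0 were called. Aph1b and Aph1c, the other Aph1 genes, had log2 fold changes of 0.72 (95% interval 0.03 to 1.40) and 2.28 (0.43 to 4.12) at 2 days, with edgeR adjusted p of 0.82 and 0.74. They share 18.4% of their 50 base stretches with each other, so reads may be split between them. Their kept samples overlapped, at 28.1 to 31.0 CPM in vehicle and 26.9 to 61.3 in Cort for Aph1b, and 1.24 to 2.16 against 1.61 to 14.3 CPM for Aph1c. Psenen, the smallest subunit, was 6.22 to 9.05 CPM in kept vehicle samples at 2 days and 7.41 to 9.73 in Cort.

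Bace2, the paralogue of Bace1, and Cx3cl1, a membrane chemokine shed by Adam10, were the pathway genes with an unadjusted p below 0.01. At 4 weeks Bace2 had 0 counts in all 3 kept vehicle samples and 1, 79, 8 and 22 in Cort. The Cort mean of 7.48 CPM was 6.29 times the mean floor of 1.19 CPM in those vehicle samples. By edgeR the 95% interval of its log2 fold change over kept samples was 2.17 to 12.9. Without Cort sample C08, which held the 79 counts, the mean was 3.11 times that floor, a check added after seeing the data. The 1 count of C07 is itself under the floor. Left-out vehicle sample C01 had 6 counts, or 5.51 CPM, so the groups overlapped over all 10. At 2 days Bace2 was 14.9, 32.1 and 25.01 CPM in kept vehicle samples and 12.1, 11.1, 23.6 and 8.35 CPM in Cort. Its adjusted p by edgeR was 0.94 at 4 weeks and 0.70 for the difference between times, which DESeq2 called with an adjusted p of 0.024.

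Cx3cl1 was 101, 53.1 and 38.5 CPM in kept 4 week vehicle samples and 316, 219, 128 and 117 CPM in Cort, so that the kept groups did not overlap. In edgeR's fit the log2 fold change was 1.59 (SE 0.46, 95% interval 0.61 to 2.57), with an adjusted p of 0.89. Left-out vehicle sample C01 at 126 CPM and Cort sample C06 at 78.7 CPM made the groups overlap. By the sums given above for kept samples, the astrocyte and the general neuronal markers were also higher in Cort at 4 weeks. The arcuate neuron markers were lower. The part of these lists in the Cx3cl1 and Bace2 values was not tested. At 2 days the log2 fold change was -0.29 (95% interval -0.67 to 0.09). The difference between times was 1.88 (95% interval 0.85 to 2.91), with an adjusted p of 0.70 by edgeR and 0.084 by DESeq2.

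**Figure D5:**
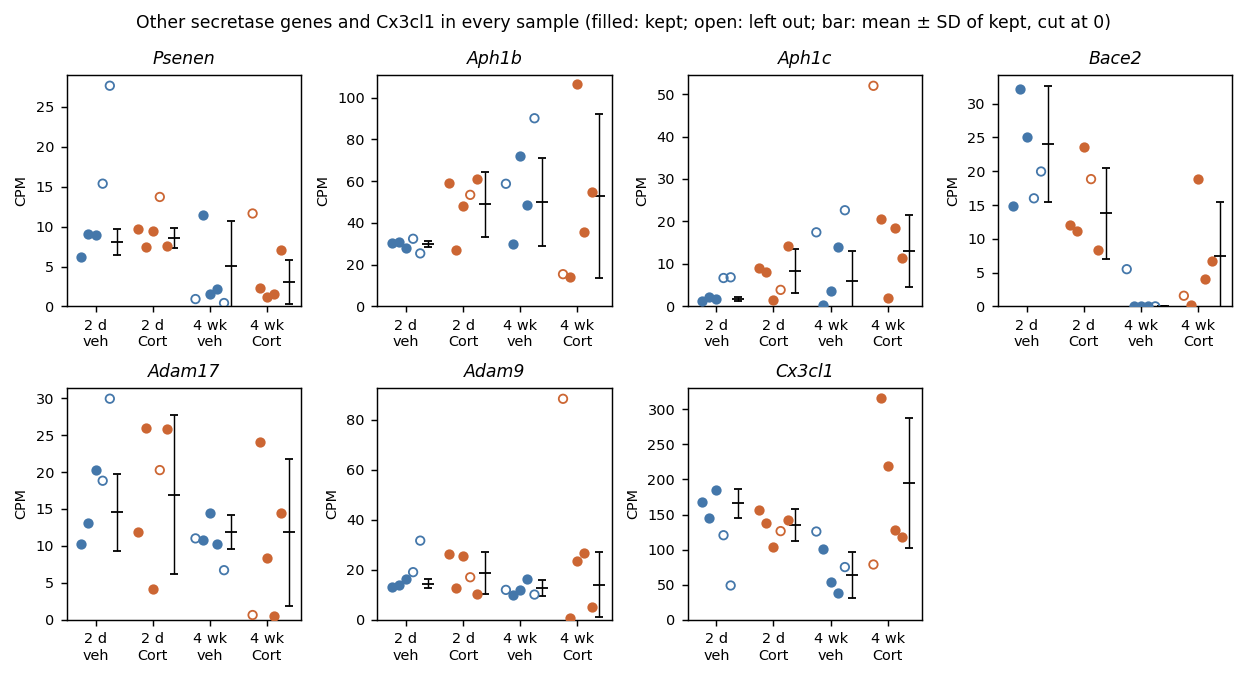
CPM (vertical axes from 0) of Psenen, Aph1b, Aph1c, Bace2, Adam17, Adam9 and Cx3cl1 in every sample of the 4 groups, drawn as for the members. At 4 weeks the filled Cx3cl1 points of Cort, from 117 CPM, lie above those of vehicle, up to 101 CPM, while the open ones at 126 CPM (vehicle) and 78.7 CPM (Cort) make the groups overlap.

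The remaining lists gave counts only. In the App tail adaptors 2 of 8 had an unadjusted p below 0.05 at 2 days and 0 of 7 at 4 weeks. Among the 11 sorting genes and inhibitors of App cleavage it was 1 at 2 days and 0 at 4 weeks. For the genes of amyloid beta degradation, carriage and uptake (7 tested at 2 days and 6 at 4 weeks), the 9 Bace1 substrates tested and the 6 Adam10 regulators tested it was 0 at 2 days and 0 at 4 weeks. The Bace1 substrates had a median log2 fold change of -0.21 at 2 days and 0.21 at 4 weeks, and those of Adam10 -0.07 and 0.04.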

How the data were processed

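RNA was measured in 20 laser-captured arcuate nucleus samples, 5 vehicle and 5 Cort in each of 2 datasets. According to the study's methods, Rsubread aligned the single-end 50 base reads to GRCm38, and featureCounts summed them by gene. The submitters' processing notes also name CASAVA 1.7 and DESeq2. The annotation release, strand setting and treatment of multiply mapped reads are not given in the sources used here. The authors deposited raw counts of 22048 genes per sample, which are the base of every value here. The signal in the authors' normalised tables is the raw count over a size factor from DESeq2. Those 14 columns were not used, since headers in the 2 day table do not match the raw columns, and were read only for the symbols. The authors' deposited columns of log2 fold change, its error, test score, p-value and adjusted p-value come from DESeq2 and were not used.

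CPM values were computed with edgeR 4.0.16 and limma 3.58.1 in R 4.3.3, scaled by TMM. Genes were filtered by filterByExpr and tested 2-sided with edgeR's quasi-likelihood method, without covariates, over the kept samples, as was the difference between times. RPKM used merged exons of GENCODE M21, which matched 21781 gene IDs. Correlations used log2 CPM with a prior count of 2. DESeq2 1.42.0 was an alternative, beside its size factors, no filter, all 10 samples and leaving out each sample. Figures were drawn with matplotlib 3.10.9, and other values computed with numpy 2.4.6, scipy 1.17.1 and pandas 2.3.3 under Python 3.11.15. The fits were tested on simulated data.

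The members and the lists were chosen with earlier results of these data known. Genes named are the 9 members, the other secretase genes, list genes with an adjusted p below 0.1 or an unadjusted p below 0.01, and the 5 genes most like App. Other list genes with an unadjusted p below 0.05, or whose kept groups did not overlap, are named after their values were seen. The value of 1 gene of the lists is not reported here, and it was left out of their counts. Reads come from amplified RNA and are not independent molecules, so floors cover counting error only.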

Additional observations from a re-analysis of the deposited data

Results flagged for a closer look

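In 36 groups of 5 samples (9 genes, 4 groups each), the sample at 1 end stood apart from the others by Dixon's ratio in 5. For normally distributed values this happens in about 1 of 20 groups. Whether these CPM values are so distributed was not tested, so no excess can be read from the 5. In 2 day Cort, sample C03 was high for Ncstn, at 72.4 CPM where the next was 45.9. In the same group sample C01 was high for Aph1a, at 18.6 CPM where the next was 5.05. At 4 weeks Aph1a was high in Cort sample C09, at 9.79 CPM with the next at 2.62, and in vehicle sample C04, at 24.2 CPM with the next at 6.43. Psen2 was high in 4 week vehicle sample C05, a sample left out by the study, at 31.9 CPM with the next at 7.10. Of the 5, 3 concern Aph1a, whose counts in those groups were 0 to 109.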

How the results depend on the processing

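The count of members called was 0 under all alternatives tried (all 10 samples, DESeq2, its size factors in edgeR, no filter on low counts, and leaving out each kept sample). The lowest adjusted p of a member over these was 0.703 at 2 days, 0.824 at 4 weeks and 0.547 for the difference between times. The count of pathway genes called was also 0 with all 10 samples. DESeq2 called 2 pathway genes for the difference between times, Bace2 (adjusted p = 0.024) and Cx3cl1 (adjusted p = 0.084). Leaving out each sample in turn gave 0 members called every time. DESeq2 gave Psen2 no adjusted p at 4 weeks. Without the filter 24 and 9 genes in all were called at 2 days and 4 weeks, against 8 and 5. DESeq2 called 52, 67 and 67 genes at 2 days, at 4 weeks and for the difference, and all 10 samples gave 2, 1 and 0. Leaving out 1 sample gave 1 to 16, 0 to 10 and 0 to 3. Small fold changes turned direction with all 10 samples: at 2 days App 0.09, Bace1 0.04 and Adam10 -0.02, at 4 weeks Aplp1 0.15, App 0.03 and Adam10 -0.23, and for the difference Aplp1 0.23 and Psen2 -0.41. Without the filter the difference for Aplp1 was 0.01. With all 10 samples at 4 weeks Psen2 and Aph1a did not pass the filter and gave no value. Leaving out 1 sample turned the direction of 5 members at 2 days, Ncstn from -0.19 to 0.14, App from -0.13 to 0.06, Bace1 from -0.24 to 0.06, Apbb1 from -0.12 to 0.17 and Adam10 from -0.04 to 0.20. At 4 weeks it turned Psen2, from -0.68 to 0.96, and Adam10, from -0.31 to 0.48. For the difference it turned Aplp1 (-0.17 to 0.08), Psen2 (-0.10 to 1.77), Aplp2 (-0.22 to 0.07), Bace1 (-0.63 to 0.04) and Adam10 (-0.39 to 0.40). The log2 ratio of Aplp1 to App depends on the length used by construction: 2.34 and 2.96 in RPKM at 2 days and 4 weeks, 2.03 and 2.66 with the longest coding transcript, a choice made after seeing the data, and 0.23 and 0.86 in CPM. That of Aplp2 to App was -0.21 and 0.69 in RPKM but -1.36 and -0.45 in CPM. No paired analysis was possible because the count columns carry barcode numbers that the labels do not tie to replicate numbers. Psen2 and Aph1a had counts at or under the floor of 3 in several samples.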
